A study of Homo sapiens with 4 samples.

Results

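The genes described here are 9 members of the HLA class I antigen presentation pathway, followed after knockdown of FAM49B. The cells are given as the established ovarian cancer cell line OVCAR8, of human origin. The genes were taken by gene symbol from a deposited table of 58735 genes. They are the heavy-chain genes HLA-B, HLA-C, HLA-E and HLA-F, the light chain B2M, the peptide transporter genes TAP1 and TAP2, the loading factor TAPBP (tapasin) and the transcriptional activator NLRC5. RNA was sequenced in 2 groups of 2 libraries. The group shCON received a scrambled hairpin and is labelled WT, and the group shFAM49B received short hairpin RNAs against FAM49B. Hairpins came as lentiviral GIPZ plasmids brought in by lipofection, with cells collected after 36 h per the labels' protocols, whereas the design text of the series speaks of a stable knockdown. Neither the hairpin sequences nor any selection of the cells is stated in the labels. The design implies 1 comparison, shFAM49B against shCON, which here asks whether the RNAs of class I presentation differed between the groups.

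Class I molecules show fragments of the cell's own proteins to CD8 T cells. Proteasomes, including the interferon-inducible immunoproteasome, cut proteins into peptides, the TAP1 and TAP2 transporter carries these into the endoplasmic reticulum, and tapasin with calreticulin and ERp57 helps load them onto a heavy chain paired with B2M. NLRC5, which is induced by interferon, acts with the RFX and NF-Y complexes and with CREB/ATF proteins at class I promoters, and tumours are known for lowering one or more of these steps to escape T cells and, through HLA-E, for engaging an inhibitory receptor of NK cells.

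RefSeq promoter windows (GRCh38.p14, the 250 bases before the annotated start) were matched for 7 of the 9 members. HLA-E and NLRC5 had no entry in the table used. Whether promoter letters relate to the direction of change was not tested. The stretches below come from members that rose as deposited (HLA-B, HLA-C and B2M), fell (TAP2) or had no call (TAP1 and HLA-F). The first 3 run from 200 to 41 bases before the start, 5′ to 3′ on the gene's own strand, from chr6:31357220-31357379 (minus) for HLA-B, chr6:31272133-31272292 (minus) for HLA-C and chr15:44711317-44711476 (plus) for B2M. Capitals mark the motif letters listed after them.
HLA-B: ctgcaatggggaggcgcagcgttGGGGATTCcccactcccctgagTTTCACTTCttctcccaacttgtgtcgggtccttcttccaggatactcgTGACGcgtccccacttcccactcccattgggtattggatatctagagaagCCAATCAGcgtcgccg
HLA-C: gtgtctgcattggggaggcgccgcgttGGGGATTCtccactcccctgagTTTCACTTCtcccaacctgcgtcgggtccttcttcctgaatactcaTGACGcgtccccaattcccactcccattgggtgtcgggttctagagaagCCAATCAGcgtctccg
B2M: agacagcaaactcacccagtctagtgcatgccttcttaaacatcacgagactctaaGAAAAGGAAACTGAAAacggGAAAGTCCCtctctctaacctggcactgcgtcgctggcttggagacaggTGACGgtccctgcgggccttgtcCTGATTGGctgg
The next 3 are 30 bases each around an interferon-response-like element, from chr6:32853815-32853844 (minus) for TAP1, chr6:32838778-32838807 (minus) for TAP2 and chr6:29723268-29723297 (plus) for HLA-F. The TAP1 and HLA-F stretches, and the end of the TAP2 stretch, lie inside the gene spans given below. For these genes the RefSeq start differs from that of the annotation behind the FPKM values.
TAP1: ggccgcTTTCGATTTCGCTTTCccctaaat
TAP2: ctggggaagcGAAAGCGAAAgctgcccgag
HLA-F: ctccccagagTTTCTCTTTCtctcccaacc

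Motifs were searched on both strands of the whole windows, with letters chosen after the promoters had been seen, and a match is a description of letters only. The letters CCAATCAG, the CCAAT box read by NF-Y, stood in HLA-B, HLA-C, HLA-F and B2M, 52 to 57 bases before the start, and in 3.81% of all 35116 windows of the same length. The letters TGACG, bound by CREB/ATF proteins, stood in HLA-B, HLA-C, B2M and TAP2, and in 21.2% of all windows. The interferon-response-like GAAANNGAAA stood in B2M, HLA-F, TAP1, TAP2 and TAPBP, and in 3.02% of all windows, while HLA-B and HLA-C carried GAAGTGAAA in its place, found in 0.439%. For NF-kappaB-like letters, HLA-B and HLA-C carried GGGGATTC (0.772% of all windows), and B2M and TAP1 carried GGGACTTTC (0.325%). TAP1 has a second annotated start, and its window held none of these letters.

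**Figure D1:**
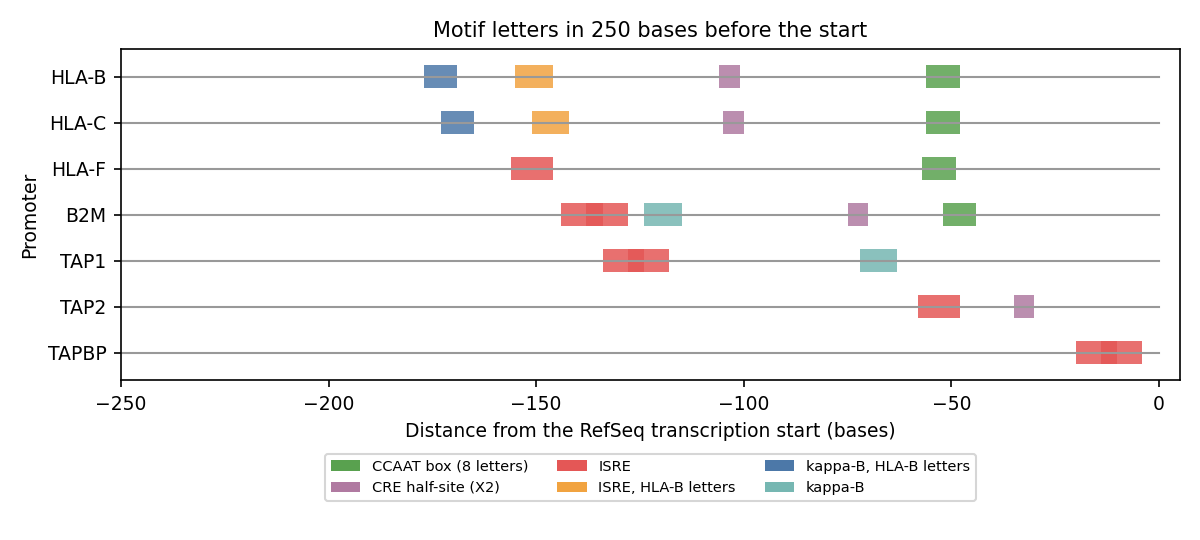
Motif letters in the 250 bases before the RefSeq start of the matched members. The x axis is the distance from the start in bases and each row is one annotated start. The coloured blocks are matches on either strand, and CCAATCAG lies 52 to 57 bases before the start in HLA-B, HLA-C, HLA-F and B2M.

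Recovered reads came to between 15639559 and 16875353 per library. FPKM (reads per kilobase of gene, scaled between libraries) divides by a read number for each library. That divisor was 1.08 and 1.10 times the read total in shCON but 0.941 and 0.919 times in shFAM49B. Compared with division by the read totals, the deposited values are thus lower in shCON and higher in shFAM49B. FAM49B, which binds the GTPase RAC1, stood at 7.41 and 7.60 FPKM in shCON and at 1.06 and 1.02 FPKM after the knockdown. It was 7.21-fold lower (log2 fold change -2.06, limma adjusted p = 0.00054). Summed levels of 15 leukocyte markers were 2.72 to 3.98 FPKM in shCON and 2.32 to 3.36 FPKM in shFAM49B, and PTPRC, the pan-leukocyte CD45 gene, was at 0 in 3 libraries and at 0.00711 FPKM in the other. Summed levels of 10 fibroblast and endothelial markers were 6.75 to 7.22 FPKM in shCON and 6.45 to 7.10 FPKM in shFAM49B. In the second of these lists 1 gene was tested, COL1A1, and it did not pass (log2 fold change 0.13, limma adjusted p = 0.239, negative as TPM). Of 10 markers of serous ovarian cancer, PAX8 did not exceed 0.112 FPKM and SOX17 was at 0 in all 4 libraries. FOLR1 did not exceed 0.608 FPKM, MSLN 0.232, CDH6 0.0054 or MUC16 0.00305. These markers do not establish the identity of the cells, which was not tested. Of the 4 tested, EPCAM (log2 fold change -1.68, limma adjusted p = 0.00224) and MECOM (-0.36, 0.049) fell, EMX2 rose (0.62, 0.0099) and WT1 did not pass (-0.38, 0.0924), and the summed level of the 10 went from 10.4 to 10.7 FPKM in shCON to 7.29 to 7.63 FPKM in shFAM49B. The MECOM call was lost whichever library was left out and the EMX2 call without shCON library 1 (limma adjusted p = 0.0512) or shFAM49B library 2 (0.0559). The part of these shifts in the results below was not tested. Nothing in the labels states whether the 2 libraries of a group are separate cultures, and p-values therefore reflect only their spread, which may be technical.

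The class I members did not move one way. As deposited, 4 of the 8 members that reached a mean of 1 FPKM rose in shFAM49B, namely HLA-C, HLA-E, B2M and HLA-B, by 1.15-fold to 1.31-fold. The transporter subunit TAP2 fell 1.28-fold, and TAP1, TAPBP and HLA-F did not pass the test. NLRC5 lay under the level needed for testing. These calls come from limma on log2(FPKM + 1) with Benjamini-Hochberg adjustment over 13775 tested genes and a threshold of 0.05. Over all tested genes 26.4% were called higher and 15.8% lower, and the members' median log2 fold change was 0.15 against 0.05 for all tested genes. The groups did not overlap for 6 of the 8 tested members, with 4 higher and 2 lower in shFAM49B, where 43.1% of all tested genes were apart in the higher direction and 31.6% in the lower. The direction of the HLA-B, HLA-C and B2M differences depends on how libraries are scaled, as given with the scalings below. In RNA from bulk cultures, fewer cells with a given RNA and less of it per cell cannot be told apart.

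**Figure D2:**
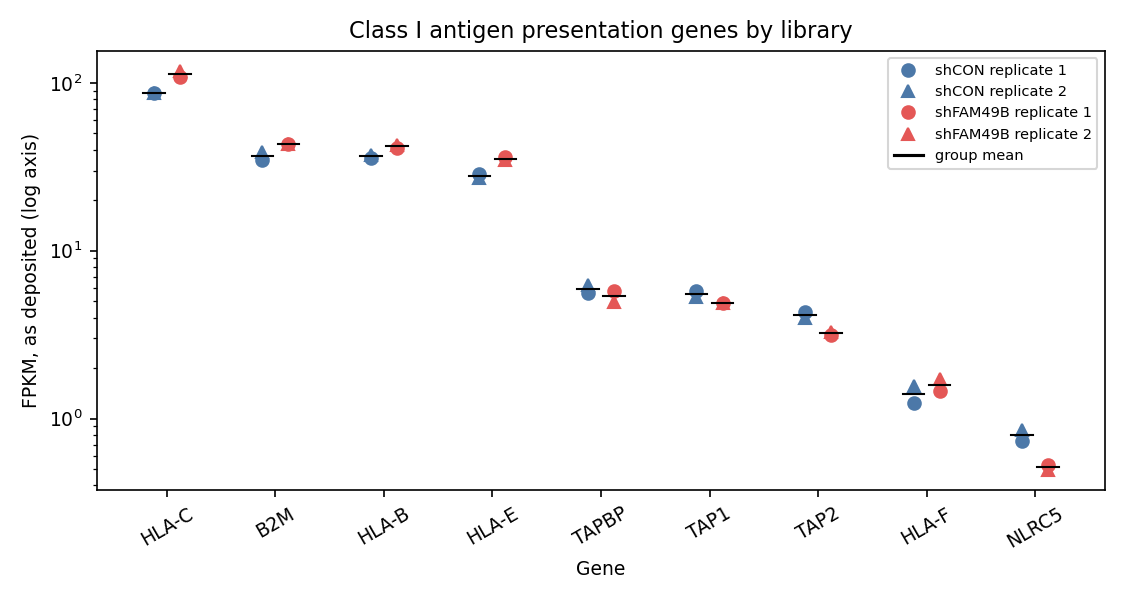
FPKM as deposited of each class I member by library. The y axis is FPKM on a log axis, points are the 4 libraries and the short lines are group means. The shFAM49B points lie above the shCON points for HLA-C, HLA-B, HLA-E and B2M, below them for TAP1, TAP2 and NLRC5, and overlap them for HLA-F and TAPBP.

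Among the heavy chains, HLA-C (ENSG00000204525, chr6:31268749-31272130, minus, GRCh38), a classical heavy chain and main ligand of the KIR receptors of NK cells, had the highest level of the members. It stood at 86.7 and 87.2 FPKM in shCON and at 109 and 118 FPKM in shFAM49B. Both shFAM49B libraries were above both shCON libraries, which were close to each other. Means came to 86.9 ± 0.356 FPKM (SD, n = 2) for shCON and 113.66 ± 6.56 FPKM for shFAM49B, 1.31-fold higher (log2 fold change 0.38, SE 0.0622, limma adjusted p = 0.00786). Leaving out any 1 library kept this call, with limma adjusted p from 0.0269 to 0.0494.

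HLA-E (ENSG00000204592, chr6:30489467-30494205, plus), the ligand of the NK receptor CD94/NKG2A, stood at 28.5 and 27.2 FPKM in shCON and at 36.3 and 34.5 FPKM in shFAM49B. The groups were well apart, with a gap larger than the spread within either group. Its mean of 27.9 ± 0.895 FPKM in shCON and 35.4 ± 1.27 FPKM in shFAM49B gave a 1.27-fold higher level (log2 fold change 0.33, SE 0.0596, limma adjusted p = 0.0102). The call was lost without shCON library 2 (limma adjusted p = 0.0528) and without shFAM49B library 1 (0.0518).

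HLA-B (ENSG00000234745, chr6:31269491-31357188, minus), the other classical heavy chain described here, stood at 35.8 and 37.1 FPKM in shCON and at 41.1 and 42.8 FPKM in shFAM49B. The groups did not overlap, though the gap was narrower than for HLA-C and HLA-E. The 2 group means were 36.4 ± 0.978 FPKM for shCON and 42.0 ± 1.18 FPKM for shFAM49B, 1.15-fold higher (log2 fold change 0.20, SE 0.0565, limma adjusted p = 0.0398). The call was lost whichever library was left out (log2 fold change 0.17 to 0.23) and with a replicate block (limma adjusted p = 0.0524).

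HLA-F (ENSG00000204642, chr6:29722775-29738528, plus), a non-classical heavy chain, was the lowest of these heavy chains. It stood at 1.24 and 1.57 FPKM in shCON and at 1.46 and 1.72 FPKM in shFAM49B, from 91 to 126 reads per library. The groups overlapped, and the difference did not pass the test (log2 fold change 0.11, SE 0.14, limma adjusted p = 0.568). HLA-F-AS1, on the opposite strand, shares 535 exon bases with it and stood at 0.539 to 0.945 FPKM, and no label states whether reads were counted by strand. Of 50-base stretches of transcript, 2.72% in HLA-B, 5.38% in HLA-C, 4.34% in HLA-E and 0.977% in HLA-F also occur in transcripts of other genes, and these genes are polymorphic, so reads could be split among them or lost and their levels are uncertain to that extent.

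B2M (ENSG00000166710, chr15:44711487-44718877, plus), the light chain that pairs with class I heavy chains, shared no 50-base stretch with another gene. It stood at 34.7 and 38.6 FPKM in shCON and at 43.2 and 43.5 FPKM in shFAM49B. The shFAM49B libraries nearly coincided and lay above both shCON libraries, which were farther from each other. The means were 36.6 ± 2.81 FPKM for shCON and 43.3 ± 0.185 FPKM for shFAM49B, 1.18-fold higher (log2 fold change 0.24, SE 0.0694, limma adjusted p = 0.0425). The call was lost without shCON library 1 (limma adjusted p = 0.155) and without shFAM49B library 1 (0.129) or 2 (0.147).

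The transporter subunits had the opposite sign. TAP2 (ENSG00000204267, chr6:32821833-32838780, minus), which forms the transporter with TAP1, stood at 4.30 and 3.96 FPKM in shCON and at 3.15 and 3.28 FPKM in shFAM49B. The groups were apart, with both shFAM49B libraries low. Group means came to 4.13 ± 0.243 FPKM for shCON and 3.22 ± 0.0919 FPKM for shFAM49B, lower by 1.28-fold (log2 fold change -0.28, SE 0.0814, limma adjusted p = 0.0411). The call was lost whichever library was left out, with limma adjusted p from 0.103 to 0.210, and with a replicate block (0.0629). TAP2 shares 2064 exon bases, 32.3% of its length, with AL669918.1 on the same strand, which is listed at 0 in all 4 libraries, so how reads in the shared exons were counted affects its level.

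TAP1 (ENSG00000168394, chr6:32845209-32853978, minus) stood at 5.74 and 5.27 FPKM in shCON and at 4.86 and 4.88 FPKM in shFAM49B. The groups did not overlap, but the gap was smaller than the spread in shCON. The group means were 5.502 ± 0.332 FPKM for shCON and 4.87 ± 0.0158 FPKM for shFAM49B, and the difference did not pass the test as deposited (log2 fold change -0.15, SE 0.0734, limma adjusted p = 0.165). It passed on the scalings that divide by the library's own reads, with a log2 fold change of -0.40 as TPM (limma adjusted p = 0.0158).

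TAPBP (ENSG00000231925, chr6:33299694-33314387, minus), which holds the empty heavy chain beside the transporter, stood at 5.60 and 6.27 FPKM in shCON and at 5.78 and 4.93 FPKM in shFAM49B. The groups overlapped, with the shFAM49B libraries unlike each other. The difference did not pass the test as deposited (log2 fold change -0.13, SE 0.0973, limma adjusted p = 0.333). It passed with voom on recovered reads (-0.38, limma adjusted p = 0.0107) but not as TPM (-0.38, 0.0568).

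NLRC5 (ENSG00000140853, chr16:56989485-57083531, plus), the class I transactivator, had the lowest level of the members. It stood at 0.737 and 0.851 FPKM in shCON and at 0.532 and 0.496 FPKM in shFAM49B, from 154 and 195 reads against 101 and 92. Both shFAM49B libraries were below both shCON libraries. Scaled as the deposited values are, its summed reads, 349 in shCON and 193 in shFAM49B, were 1.55 times higher in shCON (95% interval 1.30 to 1.86, exact, covering counting error only). With every gene tested and no minimum level, the log2 fold change was -0.24 and did not pass the test (limma adjusted p = 0.312).

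Within shCON the order of levels per length ran from HLA-C through B2M and HLA-B, which overlapped each other, to HLA-E, then TAPBP and TAP1, which also overlapped, then TAP2, HLA-F and NLRC5. In shFAM49B the same order held, and B2M (43.2 and 43.5 FPKM) lay just above HLA-B (41.1 and 42.8 FPKM) in both libraries. FPKM divides by the length of all annotated exons joined, which is 6079 bases for B2M and 2507 for HLA-C.

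The scaling between libraries bears on each of these directions. Against the values as deposited, log2 fold changes shifted, at the median over genes, by -0.24 as TPM (scaled to the same sum in each library), by -0.19 with reads divided by the library's read total, by -0.22 with voom on recovered reads, by -0.059 with median ratios over the tested genes and by -0.015 with quantile normalization. The median over all tested genes was 0.05 as deposited and -0.17 as TPM, and 62.7% of all calls were in the higher direction as deposited, 26.8% as TPM, 29.2% with reads over library totals, 29.1% with voom, 52.5% with median ratios and 52.0% with quantile normalization. The log2 fold change of HLA-B was 0.20 as deposited but -0.041 as TPM, that of B2M was 0.24 but -0.0010 as TPM, and that of HLA-C was 0.38 but -0.0035 with quantile normalization. HLA-C stayed positive with the other scalings, yet did not pass as TPM (0.14, limma adjusted p = 0.0754) or with reads over library totals (0.16, 0.0608), and passed with voom (limma adjusted p = 0.0303). HLA-E was positive with every scaling run but passed only as deposited and with median ratios. It did not pass as TPM (limma adjusted p = 0.247), with reads over library totals (0.170), with voom (0.164) or with quantile normalization (0.0999). TAP1, TAP2 and TAPBP were negative with every scaling run, and TAP2 ran from -0.56 as TPM (limma adjusted p = 0.00893) to -0.25 with quantile normalization, where it did not pass (0.0572).

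The members were also set against the median of all tested genes in the same scaling. HLA-C lay 0.29 to 0.33 log2 units above that median with each scaling other than quantile normalization, where it lay 0.02 below. HLA-E lay 0.14 to 0.28 above it in all of them. TAP2 lay 0.27 to 0.43 log2 units below the median and TAP1 0.17 to 0.24 below. With quantile normalization B2M lay 0.03 and HLA-B 0.06 below the median, where both lay above it with the other scalings. The median itself moved with the level needed for testing. As deposited it was 0.05, and 0.13 when that level was raised to 5 FPKM. HLA-C then lay 0.25 above it, HLA-E 0.20, B2M 0.10 and HLA-B 0.06, against 0.33, 0.28, 0.18 and 0.14 before. TAP1 then lay 0.28 below, against 0.20, and TAP2 was not tested. The ratios below set members of high level against TAP1 and TAP2, and the part of level in them was not tested.

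**Figure D3:**
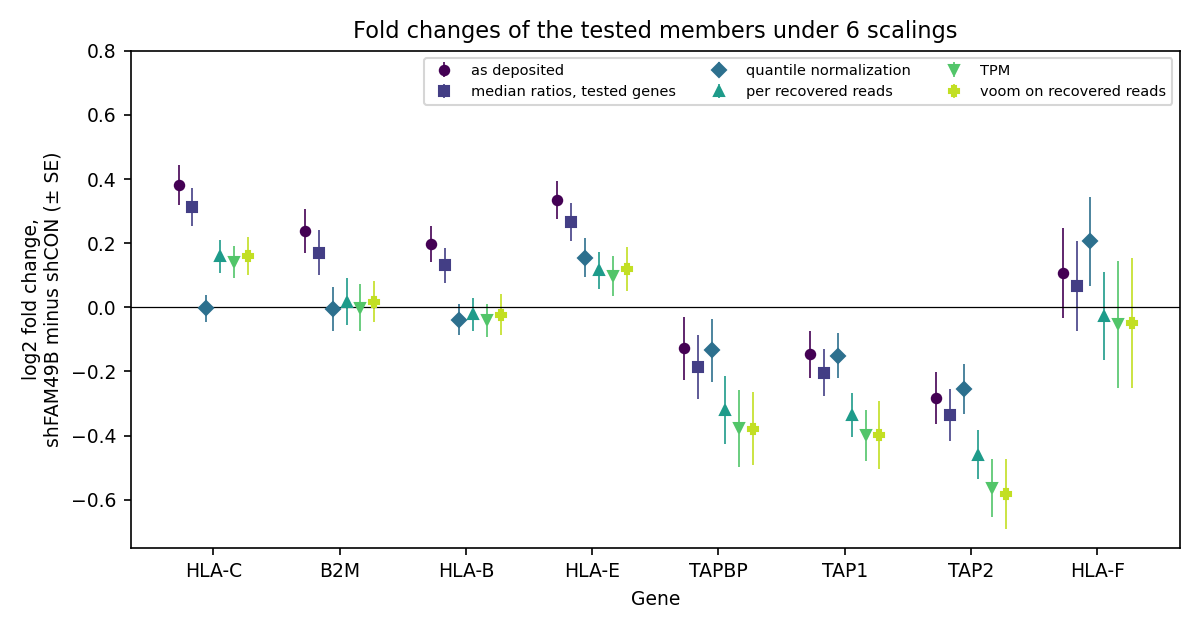
Log2 fold change of each tested member, shFAM49B minus shCON, under 6 ways of scaling the libraries. Points are limma estimates and bars are standard errors. TAP1, TAP2 and TAPBP lie below 0 and HLA-E above 0 in each scaling, whereas HLA-B, HLA-C, HLA-F and B2M change sign in at least 1.

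A ratio of 2 genes within a library does not depend on a factor applied to the whole library, as TPM, read totals and median ratios are, but it does change with quantile normalization. The log2 fold change of HLA-C less that of TAP2, for example, was 0.66 as deposited, 0.62 to 0.74 with the other 4 scalings and 0.25 with quantile normalization. The summed FPKM of the 4 heavy-chain members was 15.2 and 16.6 times that of TAP1 plus TAP2 in shCON and 23.5 and 24.2 times in shFAM49B. Both shFAM49B libraries were above both shCON libraries, with means of 15.9 ± 1.02 in shCON and 23.8 ± 0.505 in shFAM49B (SD, n = 2). B2M over TAP1 plus TAP2 was 3.45 and 4.19 in shCON and 5.39 and 5.32 in shFAM49B, 1.40-fold higher. These ratios were added after the members' values had been seen, and an exact permutation test of 2 against 2 libraries cannot go below p = 0.333.

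The light chain was also set against the heavy chains. B2M over the summed heavy-chain members was 0.228 and 0.252 in shCON and 0.230 and 0.220 in shFAM49B, with overlapping groups. HLA-C made up 57.0% and 56.9% of the summed heavy-chain members in shCON and 58.0% and 59.95% in shFAM49B, while HLA-B made up 23.5% and 24.2% against 21.9% and 21.7%. These shares did not overlap between groups, and the HLA-E and HLA-F shares did. Within the transporter, TAP1 over TAP2 was 1.333 and 1.330 in shCON and 1.54 and 1.49 in shFAM49B, so TAP2 was the lower of the pair by more in shFAM49B.

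**Figure D4:**
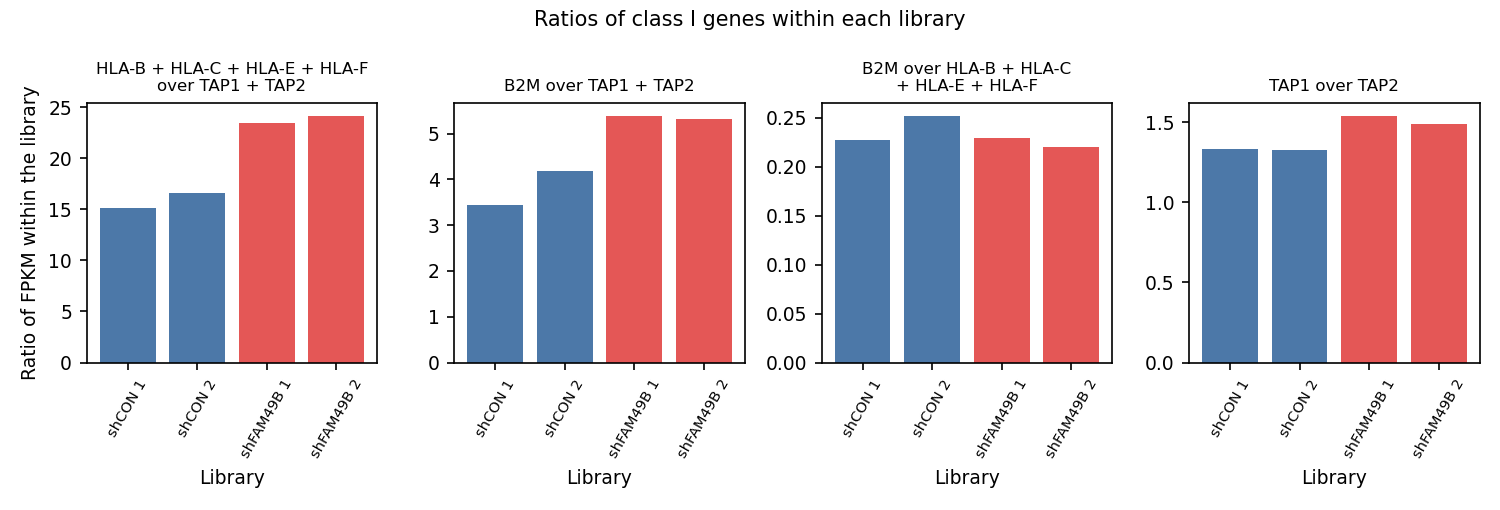
Ratios of class I genes within each library, from FPKM as deposited. Bars from 0 are the 4 libraries, coloured by group, and the y axes are ratios of FPKM. Heavy-chain members over TAP1 plus TAP2 are 15.2 and 16.6 in shCON and 23.5 and 24.2 in shFAM49B, while B2M over the heavy-chain members overlaps between groups.

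Peptides for the pathway come from the proteasome. PSMB8 and PSMB9, immunoproteasome subunits encoded beside TAP1 and TAP2, had low levels, below shCON in both shFAM49B libraries and not tested. PSMB8 had 31 and 54 reads in shCON and 2 and 7 in shFAM49B (0.613, 0.974, 0.0435 and 0.156 FPKM), 8.09 times more in shCON when scaled (95% interval 4.07 to 18.3, exact, counting error only). PSMB9, which shares a divergent promoter with TAP1, stood at 1.02 and 1.51 FPKM in shCON and at 0.573 and 0.413 FPKM in shFAM49B. All 3 immunoproteasome subunits lay under the level needed for testing, and for the third, PSMB10, the groups overlapped. Of their constitutive counterparts, PSMB5 (log2 fold change 0.44, limma adjusted p = 0.00577) and PSMB6 (0.31, 0.00907) rose as deposited and PSMB7 had 0.17 (limma adjusted p = 0.0701), negative as TPM (-0.074). The PSMB6 call was lost as TPM (0.068, limma adjusted p = 0.296) and with 3 other scalings, and the PSMB5 call with quantile normalization (0.11, 0.160).

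The ratio of PSMB8 to PSMB5, which occupies the same place in the particle, was 0.0107 and 0.0163 in shCON and 0.00057 and 0.00189 in shFAM49B. That of PSMB9 to PSMB6 was 0.0219 and 0.0335 in shCON and 0.0101 and 0.00724 in shFAM49B. The ratio of PSMB10 to PSMB7 was 0.00446 and 0.00656 in shCON and 0.00269 and 0.00391 in shFAM49B. Each of these ratios was lower in both shFAM49B libraries, that of PSMB9 by 3.20-fold and that of PSMB10 by 1.67-fold. They rest on few reads, as PSMB8 had 2 and 7 reads in shFAM49B and PSMB10 had 7 and 10. Among the PA28 activator genes, PSME1 rose 1.52-fold as deposited (log2 fold change 0.58, limma adjusted p = 0.0132) and PSME2 did not pass (0.17, limma adjusted p = 0.351, negative as TPM at -0.062). The PSME1 call was lost as TPM (0.36, limma adjusted p = 0.0750), with quantile normalization (0.0513) and without either shFAM49B library (0.0711 and 0.0592). POMP, an assembly factor of the proteasome, did not pass (0.06, limma adjusted p = 0.354, and -0.18 as TPM).

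Partners of peptide loading and trimming in the endoplasmic reticulum were mostly higher as deposited. Of 14 genes listed, 13 were tested, 9 rose (69.2%, against 26.4% of all tested genes), 1 fell (7.69%, against 15.8%) and 3 did not pass, with a median log2 fold change of 0.40 against 0.05 for all tested genes. The 9 that rose had mean levels of 17.6 to 330 FPKM, and the other tested genes of the list 1.58 to 8.69 FPKM. The median of all genes was 0.13 with a 5 FPKM minimum. The part of level in these shares was not tested. The glucosidase II subunits GANAB (1.62-fold, log2 fold change 0.69, limma adjusted p = 0.00229) and PRKCSH (1.51-fold, 0.59, 0.00266), which trim the glycan that calreticulin and calnexin read, rose the most among those named. The chaperones CALR (1.46-fold, limma adjusted p = 0.00351), HSPA5 (1.38-fold, 0.00368) and CANX (1.37-fold, 0.00491) rose as deposited, whereas with quantile normalization their log2 fold changes were -0.12, -0.25 and -0.27. With that scaling all of them passed as lower (limma adjusted p = 0.0441, 0.00546 and 0.0294). PDIA3, which encodes ERp57 of the loading complex, rose 1.15-fold as deposited (limma adjusted p = 0.0315), lost the call whichever library was left out and was at -0.046 on the log2 scale as TPM. ERAP1, the aminopeptidase that trims peptides to class I length, stood at 1.72 and 1.87 FPKM in shCON and at 1.47 and 1.26 FPKM in shFAM49B. Its difference did not pass as deposited (log2 fold change -0.24, limma adjusted p = 0.170) but did with voom (-0.63, 0.00226).

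Of 24 transcriptional regulators of class I genes, 22 were tested, 7 rose, 4 fell and 11 did not pass, with a median log2 fold change of 0.11. The shares called higher (31.8%) and lower (18.2%) were near those of all tested genes (26.4% and 15.8%). RFX5, the DNA-binding subunit of the RFX complex, rose 1.18-fold as deposited (limma adjusted p = 0.0228) and was at -0.0024 on the log2 scale as TPM. Its call was also lost with median ratios (limma adjusted p = 0.0593), with every other scaling and whichever library was left out. NFYB, a subunit of the CCAAT-binding NF-Y complex, fell 1.22-fold (limma adjusted p = 0.0424), a call lost whichever library was left out and with a replicate block (0.0652), and ATF1, which binds TGACG-type sites, fell 1.49-fold (0.00536). NFKB1, the p50 precursor of NF-kappaB, fell 1.88-fold (log2 fold change -0.75, limma adjusted p = 0.00346). EZH2, the methyltransferase of Polycomb complex PRC2, rose 1.51-fold (limma adjusted p = 0.00521), whereas SUZ12, another core subunit of it, fell 1.42-fold (0.00767) and EED, a further one, did not pass (log2 fold change 0.14, limma adjusted p = 0.215, negative as TPM). The nuclear import factor KPNA2 rose 1.54-fold (limma adjusted p = 0.0032). IRF1, an interferon-induced activator of class I genes, stood near 1 FPKM, at 1.44 and 1.28 in shCON and 1.26 and 1.251 in shFAM49B, and did not pass (limma adjusted p = 0.711, positive at 0.044 on the log2 scale with quantile normalization).

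Among interferon genes, none of 9 tested receptor and signalling genes rose and 2 fell, the receptor chain IFNAR1 (1.23-fold, limma adjusted p = 0.0211) and the phosphatase PTPN11 (1.18-fold, 0.0290), and both calls were lost whichever library was left out. The feedback inhibitor SOCS3 (log2 fold change -0.38, limma adjusted p = 0.0629) and the kinase TYK2 (0.18, 0.0662, negative as TPM) did not pass, and SOCS3 passed as TPM (-0.74, 0.0289). IFNG was at 0 in all 4 libraries. Of 14 tested interferon-stimulated genes 4 rose (28.6%), 3 fell (21.4%) and 7 did not pass, near the 26.4% and 15.8% of all tested genes. The RNA-binding antiviral proteins IFIT1 (1.76-fold, limma adjusted p = 0.00193), IFIT3 (1.60-fold, 0.00209) and IFIT2 (1.42-fold, 0.00346) rose, while the membrane restriction factor IFITM3 fell 3.79-fold (log2 fold change -1.52, limma adjusted p = 0.00413).

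The other 10 interferon-stimulated genes lay under the level needed for testing. Of them, 7 were lower in both shFAM49B libraries than in both shCON libraries, none higher. No share over all genes under that level was taken. Genes above 0 numbered 27158 and 27360 in shCON against 25209 and 25039 in shFAM49B. Of the untested fibroblast and endothelial markers, 6 were lower and 0 higher. For class I-like molecules and NK ligands these were 5 and 0, and for interferon receptor and signalling genes 2 and 2. The same limit holds for NLRC5, PSMB8 and PSMB9. GBP2, an interferon-induced GTPase, had 84 and 98 reads in shCON and 29 and 20 in shFAM49B, 3.18 times more in shCON when scaled (95% interval 2.31 to 4.46, exact, counting error only). OAS3, a sensor of double-stranded RNA, had 88 and 80 reads against 6 and 4, 14.4 times more (7.64 to 30.6). The neighbouring partners DTX3L and PARP9 had summed reads of 108 against 3 (ratio 30.8, interval 10.3 to 152) and 57 against 2 (24.4, 6.46 to 207). MX1, an antiviral GTPase, had 47 against 1 (40.3, 6.88 to 1624). These 5 were chosen after their values had been seen and are given as read counts only.

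**Figure D5:**
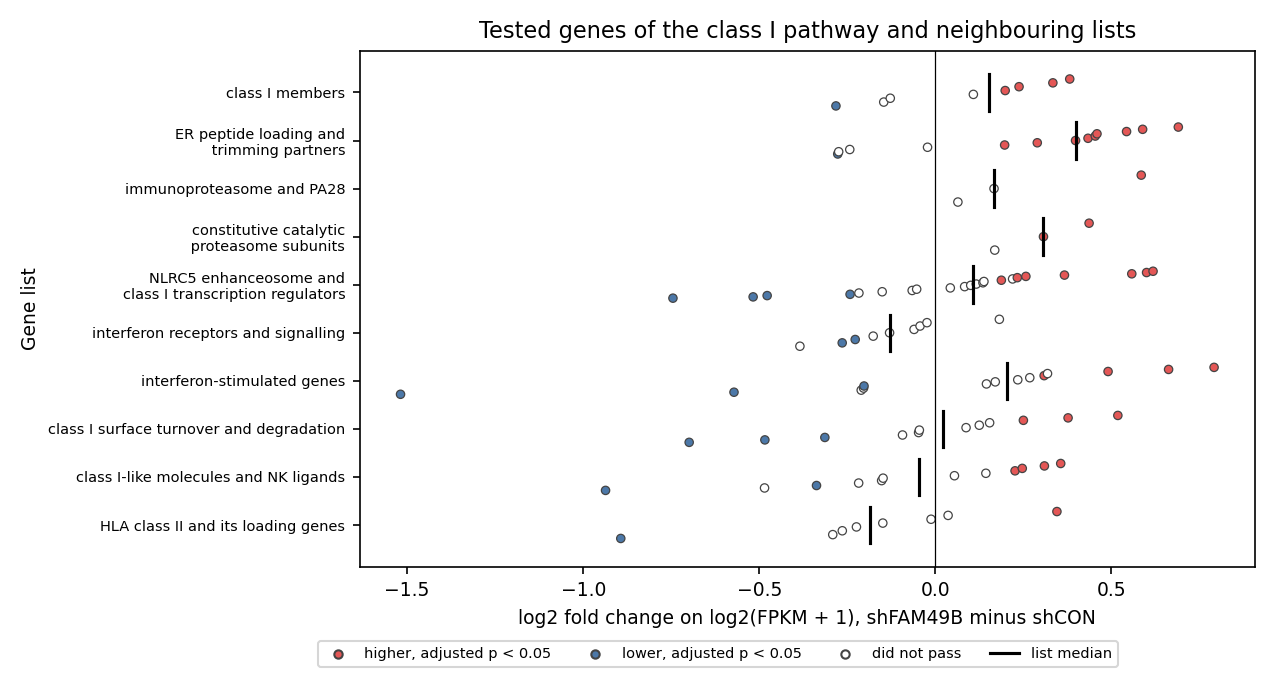
Log2 fold change, shFAM49B minus shCON on log2(FPKM + 1) as deposited, of the tested genes in each class I gene list. Each point is 1 gene, filled where limma's adjusted p was under 0.05, and the bars are list medians. The loading and trimming partners have a median of 0.40 and the class I members 0.15, against 0.05 for all tested genes. The part of expression level in these medians was not tested.

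Of 12 tested genes that act on class I molecules in surface turnover and degradation, 3 rose (25%, against 26.4% of all tested genes), 3 fell (25%, against 15.8%) and 6 did not pass. TMEM127 fell 1.79-fold (log2 fold change -0.70, limma adjusted p = 0.00276) and the ubiquitin ligase WWP2 rose 1.52-fold (0.52, 0.00392), and both have been placed in one route of class I removal. TMEM129 (1.44-fold, limma adjusted p = 0.00704) and DERL2 (1.31-fold, 0.0208), which act in degradation from the endoplasmic reticulum, fell, the DERL2 call being lost whichever library was left out (0.0701 to 0.110). SYVN1, a ubiquitin ligase of the same process, rose 1.21-fold as deposited (limma adjusted p = 0.0297), a call lost as TPM (0.756) and whichever library was left out. DERL1 (log2 fold change -0.045, limma adjusted p = 0.645) and SEL1L (-0.09, 0.283) did not pass as deposited and did as TPM (-0.29, 0.0274, and -0.34, 0.0172).

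Of 12 tested class I-like molecules and NK-cell ligands, 4 rose (33.3%), 2 fell (16.7%) and 6 did not pass, near the 26.4% and 15.8% of all tested genes. ULBP1, a ligand of the activating NK receptor NKG2D, fell 3.15-fold (log2 fold change -0.94, limma adjusted p = 0.0148) and MR1, which presents microbial metabolites, fell 1.36-fold (-0.34, 0.0437). The ULBP1 call was lost without either shCON library (limma adjusted p = 0.0721 and 0.0523), and the MR1 call whichever library was left out. Of the other NKG2D ligands, MICA rose 1.23-fold as deposited (0.25, limma adjusted p = 0.0486), a call lost as TPM (0.052, 0.664) and whichever library was left out, and ULBP2 (-0.15, 0.486), ULBP3 (-0.48, 0.0614) and MICB (-0.15, 0.191) did not pass, though ULBP3 (-0.77, 0.0208) and MICB (-0.40, 0.0239) did as TPM. FCGRT, the B2M-bound neonatal Fc receptor, rose 1.28-fold (0.31, 0.0154) and NECTIN2, a ligand of DNAM-1 and TIGIT, rose 1.29-fold (0.36, 0.00787) as deposited. Neither passed as TPM (FCGRT 0.10, limma adjusted p = 0.282, and NECTIN2 0.12, 0.154) or with voom (0.13, 0.290, and 0.14, 0.0850), and FCGRT lost its call whichever library was left out.

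The class II genes, which share the RFX and NF-Y promoter factors, were near the limit of testing apart from HLA-DRB1. Of 8 tested, HLA-DQB1 rose 1.41-fold (log2 fold change 0.35, limma adjusted p = 0.0468), HLA-DRB5 fell 2.53-fold (-0.89, 0.0257) and 6 did not pass. The shares called higher and lower were 12.5% each, against 26.4% and 15.8% of all tested genes. The HLA-DQB1 call was lost as TPM (0.23, limma adjusted p = 0.210), with median ratios (0.0712), voom (0.147) and a replicate block (0.0581) and whichever library was left out (0.0742 to 0.181), and the HLA-DRB5 call without either shCON library (0.0987 and 0.0931). HLA-DRB1 stood at 15.4 and 17.7 FPKM in shCON and at 16.6 and 16.2 FPKM in shFAM49B, with overlapping groups (-0.01, limma adjusted p = 0.916). HLA-DMA (-0.29, limma adjusted p = 0.103), HLA-DPA1 (-0.26, 0.180), HLA-DOB (-0.22, 0.470), HLA-DRA (-0.15, 0.558) and HLA-DMB (0.04, 0.870) had no call, and the signs of HLA-DRB1, HLA-DOB, HLA-DRA and HLA-DMB changed when a library was left out. The class I pseudogene HLA-H had a log2 fold change of 0.07 (limma adjusted p = 0.878), negative as TPM (-0.12). Reads of the HLA-DRB genes can be split among near-identical copies, so the HLA-DRB5 and HLA-DRB1 values are uncertain in the same way.

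The genes whose pattern over the 4 libraries was most like a member's were found by the root mean square difference of centred log2(FPKM + 1) values. For B2M these were the ion channel gene PIEZO1 (0.00887), NAF1 (0.0089), a factor of small nucleolar ribonucleoprotein assembly, and PCLAF (0.00932), a PCNA-binding factor. For TAP1 they were NBPF26 (0.00702), the kinesin KIFC3 (0.00703) and the phosphatase CTDP1 (0.00758). With 4 libraries such likeness is common, as 397 genes lay within 0.05 of B2M and 598 within 0.05 of TAP1.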

How the data were processed

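The deposited table holds FPKM for 58735 genes in 4 libraries, per the file headers. Neither aligner nor counter is given in the sources used here, and mouse builds stand in the submitters' processing notes, but every identifier is in human GENCODE release 29, and 58724 have its coordinates, so GRCh38 is used. In every library 100% of values above 0 were whole multiples of 1 read (tolerance 0.001 of a step), which gave the recovered reads. Genes that reached a mean of 1 FPKM were tested on log2(FPKM + 1) by limma 3.58.1 under R 4.3.3, 2-sided, with a mean-variance trend, 2 residual and 3.32 prior degrees of freedom. Log2 fold changes on that scale understate changes of low genes, while folds are ratios of mean FPKM. The procedure was tested on simulated data, with the outcome checked only for folds larger than those of the members. Few genes changed in that simulation and it held no shift of scaling between groups, so it does not cover such shifts. Groups and replicate numbers come from sample titles. Within groups, reads differed by a chi-square of 3.90 and 3.48 per gene, so each library was kept. Members and gene lists were chosen with earlier results of these data known. Named were all members, FAM49B, HLA genes of at least 1 FPKM, up to 4 tested genes of smallest p per list, genes of the ratios and the 3 nearest patterns. CANX, PDIA3, ERAP1, IRF1, RFX5, NFYB, SUZ12, EED, IFNG, low interferon-stimulated genes, MICA, MICB, ULBP2, ULBP3, SYVN1, DERL1, SEL1L, overlapping genes and other marker genes were added for their roles after their values had been seen. 2 genes that this rule covers are not reported here. Alternatives changed the minimum level, pseudocount, scaling, test, replicate block or libraries.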

Additional observations from a re-analysis of the deposited data

How the results depend on the processing

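As deposited, 5812 genes were called. The count was 3563 with no minimum level, 3151 to 4024 when 1 library was left out, and 5465 with a replicate block. A lone library left in a group is assumed to vary like the other group. Replicate numbers did not pair the libraries (correlation of deviations across genes -0.0132). The number of members that rose was 4, against 3 with the replicate block, 2 with no minimum level, 0 as TPM, 0 with reads over library totals, 2 with median ratios, 0 with quantile normalization, 1 with voom and 1 to 2 without 1 library. The number that fell was 1, against 0 with no minimum level, 0 with a 5 FPKM minimum, 2 as TPM, 2 with reads over library totals, 0 with quantile normalization, 3 with voom, 0 with the replicate block and 0 without any 1 library. The members' median log2 fold change was 0.15, against -0.047 as TPM, -0.024 with reads over library totals, -0.022 with quantile normalization, -0.036 with voom and 0.086 to 0.22 without 1 library. The cause of these changes was not tested. Over the 74 named genes and all settings, 690 of 932 values kept their direction and side of the threshold, 139 lost the call, 44 gained it and 59 changed sign. Depth limits NLRC5 (92 to 195 reads per library) and PSMB8 (2 to 54 reads).

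Signs also turned for single genes. As TPM, log2 fold changes were -0.041 for HLA-B, -0.054 for HLA-F, -0.0010 for B2M, -0.046 for PDIA3, -0.062 for PSME2, -0.074 for PSMB7, -0.0024 for RFX5, -0.18 for POMP, -0.052 for TYK2, -0.086 for COL1A1, -0.072 for EED, -0.14 for HLA-DMB and -0.12 for HLA-H. With reads over library totals they were -0.021 for HLA-B, -0.027 for HLA-F, -0.026 for PDIA3, -0.040 for PSME2, -0.054 for PSMB7, -0.16 for POMP, -0.031 for TYK2, -0.060 for COL1A1, -0.046 for EED, -0.085 for HLA-DMB and -0.052 for HLA-H. With quantile normalization they were -0.039 for HLA-B, -0.0035 for HLA-C, -0.0061 for B2M, -0.12 for CALR, -0.25 for HSPA5, -0.27 for CANX, -0.18 for PDIA3, -0.17 for PSMB7, -0.21 for POMP and 0.044 for IRF1. With voom they were -0.023 for HLA-B, -0.050 for HLA-F, -0.027 for PDIA3, -0.047 for PSME2, -0.055 for PSMB7, -0.16 for POMP, -0.033 for TYK2, -0.072 for COL1A1, -0.058 for EED, -0.14 for HLA-DMB and -0.16 for HLA-H. With median ratios HLA-DMB was at -0.00076 and POMP at -0.0035. Without 1 library in turn, PSME2 ran from -0.019 to 0.353, HLA-DRB1 from -0.105 to 0.081, HLA-DOB from -0.52 to 0.071, HLA-DRA from -0.36 to 0.057, HLA-DMB from -0.085 to 0.158, ULBP2 from -0.39 to 0.087, DERL1 from -0.094 to 0.0033 and HLA-H from -0.35 to 0.49.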
